A study of Mus musculus with 6 samples.

Results

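The late neutrophil granule genes are 10 genes, S100a8, S100a9, Ngp, Ltf, Camp, Lcn2, Lyz2, Retnlg, Fcnb and Mmp8, taken by symbol from a table of 26776 genes. All 10 were in the table and all 10 passed the filter on low counts that left 18081 genes for testing. RNA was taken from bone marrow cells sorted as LT-HSCs, the long-lived stem cells from which all blood cells descend, of Trim47+/eGFP mice. Every library comes from that genotype, whose name places eGFP, a green fluorescent reporter protein, on an allele of Trim47, and no library without the reporter was compared. Cells with low (eGFPlo) and high (eGFPhi) reporter fluorescence gave 3 libraries each, and the comparison asks which transcripts differ between them. The sources used here give neither the age of the mice, nor the gate for LT-HSCs, nor whether animals were pooled. Nothing says that libraries come from separate animals, and the p-values therefore measure the spread between these 6 samples alone, which may be technical.

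Neutrophils are filled with granules in an order that follows their maturation. Promyelocytes make primary (azurophil) granules with myeloperoxidase and serine proteases, later precursors make secondary (specific) and tertiary granules with lactoferrin, cathelicidin, lipocalin-2 and metalloproteinases, and the cytosol of mature cells is rich in the calcium-binding proteins S100A8 and S100A9, which pair as calprotectin. Transcription factors of the C/EBP family drive the switch to the late granule genes. In bone marrow these transcripts are typical of neutrophil precursors and neutrophils, and not of stem cells.

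The sequences shown are the 250 bases before the RefSeq start of S100a8, S100a9, Fcnb and Retnlg. That start can differ from the gene ends given further on, which are those of the deposited table, so the windows of S100a8 and Fcnb reach into the gene as listed there. S100a8 and S100a9 are neighbours, of which S100a8 fell 1.63-fold and S100a9 rose only 1.11-fold, a call that did not hold throughout (given below). Fcnb and Retnlg had the largest fall and rise of the set. They are from RefSeq on GRCm38.p6, 5′ to 3′ on each gene's strand, at chr3:90668821-90669070 (plus), chr3:90695722-90695971 (minus), chr2:28084879-28085128 (minus) and chr16:48872358-48872607 (plus). Capitals mark matches to TTNNGNAA, a loose form of the C/EBP motif, and to GAGGAA, a core bound by PU.1 and other ETS factors, each searched on both strands.
S100a8: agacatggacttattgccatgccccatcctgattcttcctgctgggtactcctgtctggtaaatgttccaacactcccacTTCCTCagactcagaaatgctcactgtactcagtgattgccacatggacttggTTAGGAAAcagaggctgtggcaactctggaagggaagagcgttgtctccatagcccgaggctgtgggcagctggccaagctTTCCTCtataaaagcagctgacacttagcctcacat
S100a9: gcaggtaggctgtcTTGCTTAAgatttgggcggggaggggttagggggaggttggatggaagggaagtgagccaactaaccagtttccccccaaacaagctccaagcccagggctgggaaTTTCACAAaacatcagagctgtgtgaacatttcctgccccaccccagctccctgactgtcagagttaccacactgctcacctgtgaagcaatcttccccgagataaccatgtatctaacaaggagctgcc
Fcnb: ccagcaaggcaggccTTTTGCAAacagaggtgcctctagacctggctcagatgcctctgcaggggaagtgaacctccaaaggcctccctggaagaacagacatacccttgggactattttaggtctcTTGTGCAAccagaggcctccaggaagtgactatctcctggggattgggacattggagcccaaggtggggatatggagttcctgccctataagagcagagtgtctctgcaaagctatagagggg
Retnlg: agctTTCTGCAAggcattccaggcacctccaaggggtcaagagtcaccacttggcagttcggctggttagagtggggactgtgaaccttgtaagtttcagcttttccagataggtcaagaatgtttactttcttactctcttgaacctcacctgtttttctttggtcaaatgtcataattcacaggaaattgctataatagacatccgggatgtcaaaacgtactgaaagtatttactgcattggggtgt

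All 10 members matched a RefSeq start. TTNNGNAA was found before 9 of the 10 members, all but Camp, and before 36.8% of 32851 RefSeq starts in windows of the same length. GAGGAA was found before 4 of the 10 members and before 23.3% of all starts. S100a8 had 1 match to the C/EBP motif and 2 to GAGGAA, whereas S100a9 and Fcnb had 2 matches each and Retnlg 1 match to the C/EBP motif, with none to GAGGAA in those 3 windows. A match describes the letters of these windows and no binding was measured.

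Library totals ran from 11221070 to 26058391 counts. Levels are in CPM, a count divided by its library's total and put on a common scale with TMM factors, which assume that most genes do not change. Means have their SD over the 3 libraries of a group (n = 3). Fold changes compare eGFPhi with eGFPlo in edgeR quasi-likelihood fits over all 18081 genes, with Benjamini-Hochberg adjusted p-values and a threshold of 0.05. Trim47, the gene behind the reporter, stood at 8.12 ± 0.818 CPM in eGFPlo and 23.7 ± 2.29 CPM in eGFPhi, in the direction of the sort. Of 8 stem cell markers 7 were higher in eGFPhi and 0 lower, beside 32.3% and 31.7% of all genes. The markers summed to 857 to 902 CPM in eGFPlo and 1700 to 1910 CPM in eGFPhi, so genes of the labelled cell type were read in both groups.

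As a group the late granule genes took up nearly the same part of the RNA in both sorts. Their summed level was 276, 277 and 281 CPM in the eGFPlo libraries and 284, 284 and 298 CPM in the eGFPhi libraries. The lowest eGFPhi sum lay just above the highest eGFPlo sum, and the members made up 0.0275 to 0.0280% of counts in eGFPlo and 0.0284 to 0.0298% in eGFPhi. The sums weigh members by their counts. Lyz2 made up 27.0 to 29.3% of the members' counts in eGFPlo and 34.6 to 37.0% in eGFPhi. Fcnb made up 6.61 to 8.22% and 1.19 to 1.66%, and S100a8 13.1 to 13.7% and 7.44 to 8.41%. The near-equal sums thus rest in part on the rise of Lyz2 beside the falls of Fcnb and S100a8. Within these near-equal sums members went both ways. Of the 10 genes, 4 were higher in eGFPhi (Retnlg, Mmp8, Lyz2 and S100a9), 2 were lower (Fcnb and S100a8) and 4 did not pass the threshold (Ngp, Ltf, Camp and Lcn2). Among all genes tested 64.0% passed, 32.3% higher and 31.7% lower, so a count of 6 in 10 is close to the background and does not set the members apart. Those same 6 were the ones whose groups did not overlap, 4 with all eGFPhi libraries above (35.2% of all genes) and 2 with all below (34.6%), against 69.8% of all genes in either direction. Their median log2 fold change was 0.11, beside 0.00 over all genes. The number called higher rests in part on single libraries: it was 2 without eGFPlo replicate 2, 2 without eGFPhi replicate 2 and 2 without eGFPhi replicate 3. In bulk RNA, fewer cells of a type and less RNA per cell cannot be told apart, here and in every comparison that follows.

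**Figure D1:**
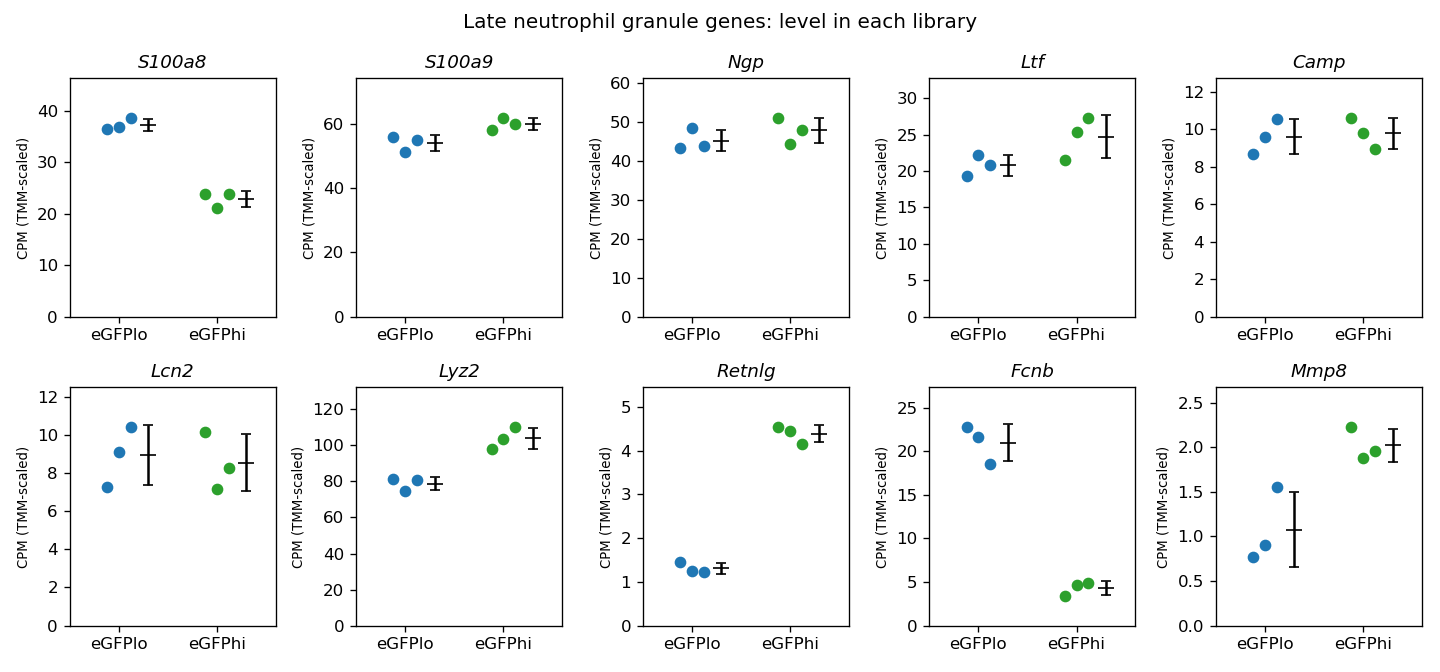
Level of each late granule gene (CPM, linear axes from 0) in the 3 eGFPlo and 3 eGFPhi libraries, 1 point per library, with mean and SD beside the points. Fcnb and S100a8 lie lower in every eGFPhi library, Retnlg lies higher, and the points of Ngp, Ltf, Camp and Lcn2 overlap.

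The cytosolic pair S100a8 and S100a9 did not move together. S100a8 (ENSMUSG00000056054, GRCm38 chromosome 3, 90668978 to 90670035, plus strand) stood at 36.4, 36.9 and 38.6 CPM in the eGFPlo libraries and at 23.9, 21.1 and 23.8 CPM in the eGFPhi libraries. All eGFPhi values lay below all eGFPlo values. The fall from 37.3 ± 1.15 to 22.9 ± 1.57 CPM was 1.63-fold (log2 fold change -0.71, SE 0.07, edgeR adjusted p = 7.37e-05).

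S100a9 (ENSMUSG00000056071, chromosome 3, 90692632 to 90695721, minus strand) lies 22597 bp from S100a8 and was measured at 55.9, 51.3 and 54.9 CPM in eGFPlo and at 58.1, 61.7 and 60.1 CPM in eGFPhi. The groups did not overlap, but their gap was small beside their spread. It rose 1.11-fold (log2 fold change 0.15, SE 0.05, edgeR adjusted p = 0.0277). That call was lost without eGFPlo replicate 2 (0.11, adjusted p = 0.0796), without eGFPlo replicate 3 (0.16, 0.0512), without eGFPhi replicate 2 (0.13, 0.0951) and without eGFPhi replicate 3 (0.16, 0.0679). It was also lost with the replicate block (0.0659), DESeq2 (0.0979), an assumed coefficient of variation of 0.2 (0.678) and a minimum fold of 2. Over all alternatives the adjusted p ran from 0.0143 to 1.

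Set against each other within a library, S100a8 counts were 0.651, 0.719 and 0.703 of the S100a9 counts in eGFPlo and 0.410, 0.342 and 0.397 in eGFPhi. The ratio was thus 1.81-fold lower in eGFPhi, with no overlap between groups (difference of mean log2 ratios -0.85, exact two-sided permutation p = 0.1, the smallest that 3 libraries against 3 allow, and 0.2 adjusted over the 2 pairs compared). The ratio of Camp to Ngp, the other pair compared, was 0.1996, 0.1974 and 0.239 in eGFPlo and 0.207, 0.220 and 0.186 in eGFPhi. These values overlapped (difference -0.05 on the log2 scale, exact permutation p = 0.7, adjusted 0.7). Both members of each pair are read in the same library, so library size does not enter the ratios.

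Fcnb, the gene of ficolin B, a lectin that recognises sugars on microbes and is made early among these genes in myeloid precursors, fell the most. Fcnb (ENSMUSG00000026835, chromosome 2, 28076378 to 28084885, minus strand) was measured at 22.8, 21.6 and 18.6 CPM in eGFPlo and at 3.38, 4.61 and 4.93 CPM in eGFPhi. Each eGFPlo library held several times the level of any eGFPhi library. The change from 21.0 ± 2.15 to 4.31 ± 0.818 CPM was a 4.76-fold fall (log2 fold change -2.25, SE 0.15, edgeR adjusted p = 1.07e-05), and 675 of the 18081 genes fell further. Fcna, which encodes the related ficolin A, was at 0.416 and 0.686 CPM and did not pass the threshold (adjusted p = 0.177).

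Ngp, Camp, Lcn2 and Ltf did not pass the threshold. Ngp (neutrophilic granule protein, a cathelicidin-like protein) was measured at 43.3, 48.5 and 44.0 CPM in eGFPlo and at 51.1, 44.5 and 48.1 CPM in eGFPhi. The groups overlapped, and the fold of 1.05 had a 95% interval of 0.943 to 1.18 (edgeR adjusted p = 0.362). Camp, which encodes the antimicrobial peptide precursor cathelicidin, was at 8.65, 9.58 and 10.5 CPM in eGFPlo and at 10.6, 9.80 and 8.94 CPM in eGFPhi. Its values covered nearly the same range in both groups, with a fold of 1.01 and an interval of 0.841 to 1.22 (adjusted p = 0.908).

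Lcn2, the gene of lipocalin-2, which binds bacterial iron carriers, was at 7.28, 9.09 and 10.4 CPM in eGFPlo and at 10.1, 7.18 and 8.27 CPM in eGFPhi. The groups overlapped, and the interval of its fold, 0.707 to 1.24 around 0.936, is the widest of the 4 genes that did not pass (adjusted p = 0.655). Ltf encodes the iron-binding protein lactoferrin and was at 19.3, 22.2 and 20.9 CPM in eGFPlo against 21.5, 25.4 and 27.3 CPM in eGFPhi. Only eGFPhi replicate 1 lay within the eGFPlo range. Its fold of 1.196 (interval 1.02 to 1.41) missed the threshold (adjusted p = 0.0552). Without eGFPhi replicate 1 it passed (log2 fold change 0.35, adjusted p = 0.0111), as it did with upper-quartile factors (0.0396), the stricter filter (0.0429), limma-voom (0.0411), the replicate block (0.0373) and a threshold of 0.1, within a range of 0.0111 to 1 over all alternatives. For these 4 genes the interval bounds the change and does not show that it is absent. Ngp, Camp and Ltf lie on chromosome 9, at 110419747 to 110423012, 109847379 to 109849617 and 111019271 to 111042767.

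Mmp8, which encodes neutrophil collagenase, a metalloproteinase of the secondary granules, was the rarest member. It had 9, 13 and 28 counts in eGFPlo and 25, 49 and 38 in eGFPhi, or 0.771, 0.909 and 1.55 CPM against 2.23, 1.88 and 1.95 CPM. The groups did not overlap, and eGFPlo replicate 3 was the nearest to eGFPhi. The rise of 1.78-fold had an interval of 1.15 to 2.76 (log2 fold change 0.84, SE 0.27, edgeR adjusted p = 0.0272). The call was lost without eGFPlo replicate 1 (0.67, adjusted p = 0.0738), eGFPlo replicate 2 (0.71, 0.0856), eGFPhi replicate 1 (0.79, 0.0612), eGFPhi replicate 2 (0.89, 0.0514) or eGFPhi replicate 3 (0.86, 0.0563). It was also lost with DESeq2 (0.109) and with a minimum fold of 2, within a range of 0.00484 to 1 over its alternatives.

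Retnlg, the gene of the resistin-like protein gamma that is typical of mature neutrophils, rose the most. Retnlg (ENSMUSG00000022651, chromosome 16, 48872621 to 48874496, plus strand) had 17, 18 and 22 counts in eGFPlo and 51, 116 and 81 counts in eGFPhi. These made 1.46, 1.26 and 1.22 CPM against 4.54, 4.46 and 4.16 CPM, with a wide gap between groups at a low level. The rise was 3.36-fold with an interval of 2.62 to 4.29 (log2 fold change 1.75, SE 0.15, edgeR adjusted p = 4.54e-05). Retnlg and Fcnb, which differ in the direction of change, both kept their direction and their call under every alternative that gave them a value (the stricter filter left Retnlg out).

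Lyz2, which encodes the lysozyme of macrophages, monocytes and neutrophils and is found in all granule types, was the most abundant member by CPM. It was measured at 81.2, 74.6 and 80.6 CPM in eGFPlo and at 98.2, 103 and 110 CPM in eGFPhi, without overlap. The rise from 78.8 ± 3.66 to 104 ± 6.03 CPM was 1.32-fold (log2 fold change 0.40, SE 0.05, edgeR adjusted p = 0.000436). The call was lost when the coefficient of variation was set to 0.2 (adjusted p = 0.189) and with a minimum fold of 2. The adjusted p of Lyz2 ran from 3.82e-07 to 1 over the alternatives. Of the 1267 runs of 50 bases in its transcript, 15.4% also occur in transcripts of Lyz1, a close copy. Lyz1 had 0 to 2 counts in each library, so how reads shared between both genes were assigned bears on Lyz2 to that extent. No such run of the other 9 members occurs in another gene, and no member's exons overlap those of another gene in GENCODE M21.

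**Figure D2:**
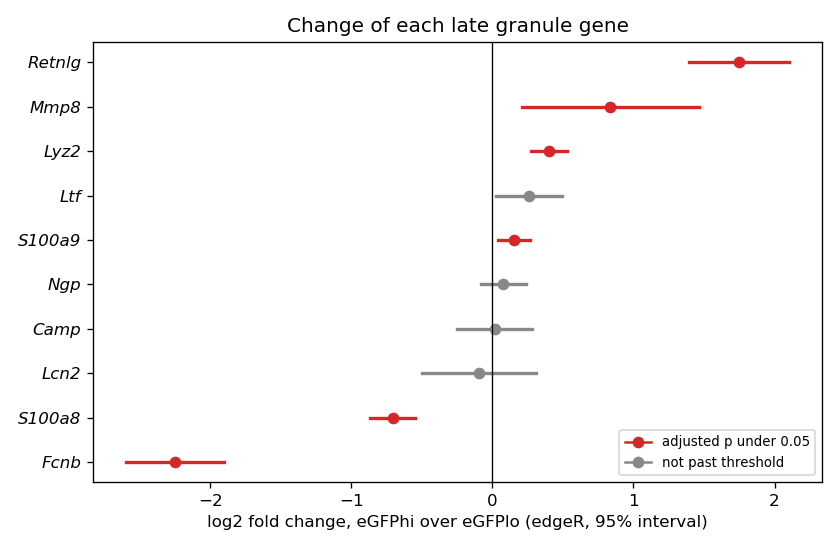
Log2 fold change of each late granule gene, eGFPhi over eGFPlo, from edgeR fits (points) with 95% intervals (lines), red where the adjusted p was under 0.05. The values run from -2.25 for Fcnb to 1.75 for Retnlg, and the intervals of Ngp, Camp and Lcn2 span 0.

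Levels of different genes can be compared only per length, here as CPM per kilobase of merged exons. In eGFPlo, S100a9 was the highest at 98.3 to 107 CPM per kb, followed by Lyz2 at 56.7 to 61.7, S100a8 at 52.5 to 55.6 and Ngp at 35.5 to 39.7. Fcnb at 13.9 to 17.02 and Camp at 11.4 to 13.9 lay next to each other with almost no gap, and Ltf (5.59 to 6.42), Lcn2 (2.78 to 3.97), Retnlg (2.05 to 2.46) and Mmp8 (0.318 to 0.639) were lower in turn. The order changed in 3 places in eGFPhi. S100a8, at 30.5 to 34.4 CPM per kb, fell below Ngp at 36.4 to 41.8. Retnlg, at 7.02 to 7.66, came level with Ltf at 6.24 to 7.91. Fcnb, at 2.53 to 3.68, came level with Lcn2 at 2.74 to 3.87, and Mmp8 remained the lowest at 0.776 to 0.918. On the same scale the stem cell surface receptor gene Kit had means of 60.5 CPM per kb in eGFPlo and 87.9 in eGFPhi, beside 59.9 and 79.0 for Lyz2.

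**Figure D3:**
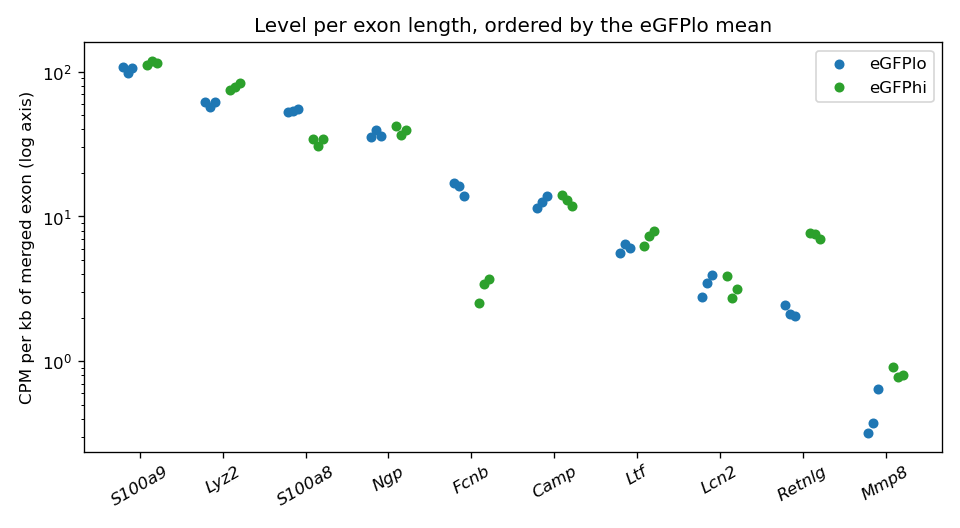
CPM per kilobase of merged exon on a log axis for each late granule gene, 1 point per library, ordered by the eGFPlo mean. S100a9 is the highest and Mmp8 the lowest in both groups, and Fcnb lies above Retnlg in eGFPlo and below it in eGFPhi.

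Primary granule genes, made earlier in the same lineage, were far lower in eGFPhi. All 8 of 8 measured fell, where 31.7% of all genes did, at a median of -4.46 on the log2 scale, and summed levels of 5370 to 5460 CPM in eGFPlo and 309 to 319 CPM in eGFPhi. The myeloperoxidase gene Mpo was 20.5-fold, the elastase gene Elane 22.7-fold, the cathepsin G gene Ctsg 27.4-fold and the proteinase 3 gene Prtn3 4.15-fold lower. The summed CPM of the primary genes was 19.3 to 19.7 times that of the late genes in eGFPlo libraries and 1.07 to 1.11 times in eGFPhi libraries. These sums are not per length, so the ratios compare parts of the counts and not transcript levels. Log2 fold changes in the primary list ran from -5.35 (the cystatin F gene Cst7) to -1.74 (the elastase inhibitor gene Serpinb1a). Fcnb, at -2.25, was the one late granule gene within that range, and the next lowest, S100a8, was at -0.71.

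Other genes of secondary, tertiary and secretory granules were mostly lower too. Of 14 tested, 9 fell, 1 rose and 4 did not pass, and the median change was -0.97 (log2). Among all genes tested 31.7% fell and 32.3% rose. The integrin gene Itgam fell 8.94-fold (from 54.2 to 6.02 CPM), the haptoglobin gene Hp 10.3-fold (44.7 to 4.22 CPM), the protease inhibitor gene Slpi 4.55-fold (10.3 to 2.20 CPM) and the annexin gene Anxa1 2.20-fold (76.2 to 34.6 CPM). The gene that rose was Olfm4, encoding olfactomedin 4, at 0.785 and 1.38 CPM, and no member of the list passed upwards without eGFPlo replicate 1, 2 or 3 or without eGFPhi replicate 1 or 3. Those that did not pass were the gelatinase gene Mmp9 (5.13 and 4.16 CPM), the chitinase-like gene Chil3 (5.55 and 6.26 CPM), Cd177 (2.49 and 2.45 CPM) and Itgb2l (1.19 and 1.12 CPM).

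Of 13 mature neutrophil genes tested, 8 fell and 3 rose, beside 31.7% and 32.3% of all genes, and 2 did not pass. The median change was -1.16 (log2). The G-CSF receptor gene Csf3r fell 1.73-fold, the leukotriene receptor gene Ltb4r1 5.27-fold and the lectin gene Clec4d 3.62-fold. The arginine deiminase gene Padi4 (55.6 and 68.5 CPM), the Myc antagonist gene Mxd1 (63.2 and 67.8 CPM) and Ifitm6 (0.817 and 1.59 CPM) were the ones that rose. The rise of Mxd1 was 1.07-fold and barely passed (edgeR adjusted p = 0.04905). With RLE factors 2 genes of the list passed upwards. With the replicate block, with DESeq2 or with an assumed coefficient of variation of 0.2, only 1 passed upwards, and with no filter 5 did. Il1b had no count in eGFPlo and 15 counts in eGFPhi, and Ly6g, the defining surface antigen of mouse neutrophils, had 5 counts in eGFPlo replicate 2 and none in the other 5 libraries.

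Transcription factors of granulocytes went both ways. Of 10 tested, 6 were lower and 3 higher, beside 31.7% and 32.3% of all genes, and 1 did not pass the threshold. Cebpe, whose product drives late granule genes, fell 6.42-fold from 10.8 to 1.66 CPM, Cebpa 2.35-fold from 54.5 to 23.2 CPM, and the monocyte and dendritic cell factor gene Irf8 5.19-fold from 46.6 to 9.07 CPM. Cebpb, a factor of stress-driven granulocyte formation, rose 1.795-fold from 58.7 to 105 CPM. Among receptors and inhibitors of the granule proteins, 4 of 9 tested rose and 2 fell, beside 32.3% and 31.7% of all genes. The lipocalin-2 receptor gene Slc22a17 rose 4.25-fold from 5.003 to 21.2 CPM, the metalloproteinase inhibitor gene Timp2 2.20-fold, and the scavenger receptor gene Lrp1, a receptor for lactoferrin, 1.597-fold. Lrp2 had 172 counts in eGFPlo replicate 3 and none elsewhere. The gene of Toll-like receptor 4, a receptor for calprotectin, did not pass at 7.37 and 6.33 CPM (adjusted p = 0.581).

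Other S100 genes showed no single direction: of 6 tested, S100a6 rose, S100a11 and S100a10 fell and 3 did not pass. For this list and the related genes below, the shares over all genes were 32.3% higher and 31.7% lower. S100a6, the nearest tested gene to S100a8 on its lower side, was at 4.32 and 6.19 CPM, S100a11 at 61.9 and 37.5 CPM and S100a10 at 54.0 and 48.0 CPM. Without eGFPlo replicate 1 or 2 or eGFPhi replicate 1 or 3, 0 passed upwards and 1 downwards. S100a3 and S100a7a had no count in eGFPlo, and S100a16 and S100g none in eGFPhi, each with 13 counts or fewer in all. In genes related to the members by family, Mmp14 and Mmp2 rose, Mmp19 and the transferrin gene Trf fell and Fcna did not pass, out of 5 tested. The 18 nearest tested genes on both sides of the members, looked at after the data were seen, included 4 that rose and 10 that fell. Among all genes tested 32.3% rose and 31.7% fell, and whether the neighbours differ from that was not tested.

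Markers of most other blood cells were lower in eGFPhi, while of 5 neutrophil markers tested 1 rose, 0 fell and 4 did not pass. Each count in this paragraph stands beside 32.3% of all genes that rose and 31.7% that fell. The 6 neutrophil markers measured all belong to the other granule genes or the mature neutrophil genes above. They are therefore no separate observation. In those lists 9 of 14 and 8 of 13 genes tested fell, and 1 and 3 rose. The 6 markers summed to 63.5 to 68.9 CPM in eGFPlo and 73.2 to 81.0 CPM in eGFPhi. Most of that was Padi4; the other 5 summed to 8.53 to 11.02 and 8.28 to 10.3 CPM, with Ly6g at 0 in all eGFPhi libraries and Cxcr2 at 1.21 and 1.83 CPM. Monocyte markers fell in 7 of 7, from 119 to 142 down to 33.7 to 37.0 CPM, and macrophage markers in 2 of 3 tested, from 29.9 to 41.2 down to 16.1 to 19.5 CPM. Eosinophil, basophil and mast cell markers fell in 6 of 7 and rose in 1, from 111 to 131 down to 37.6 to 40.7 CPM. B cell markers fell in 7 of 7, from 6060 to 6150 down to 735 to 760 CPM. Most of both sums was Ighm (means of 3026 and 394 CPM) and Igkc (2726 and 336 CPM). T and NK cell markers fell in 4 of 4 tested, from 57.4 to 57.9 down to 8.10 to 9.22 CPM. Cd3d, Cd3e, Cd3g and Trbc2 were at 0 in eGFPhi, with only 5, 11, 53 and 107 counts over the eGFPlo libraries. Of these genes only Trbc2 was tested. Erythroid markers fell in 5 of 7, from 72.0 to 89.6 down to 33.7 to 43.0 CPM. The part of other cells in the levels of the late granule genes was not tested.

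**Figure D4:**
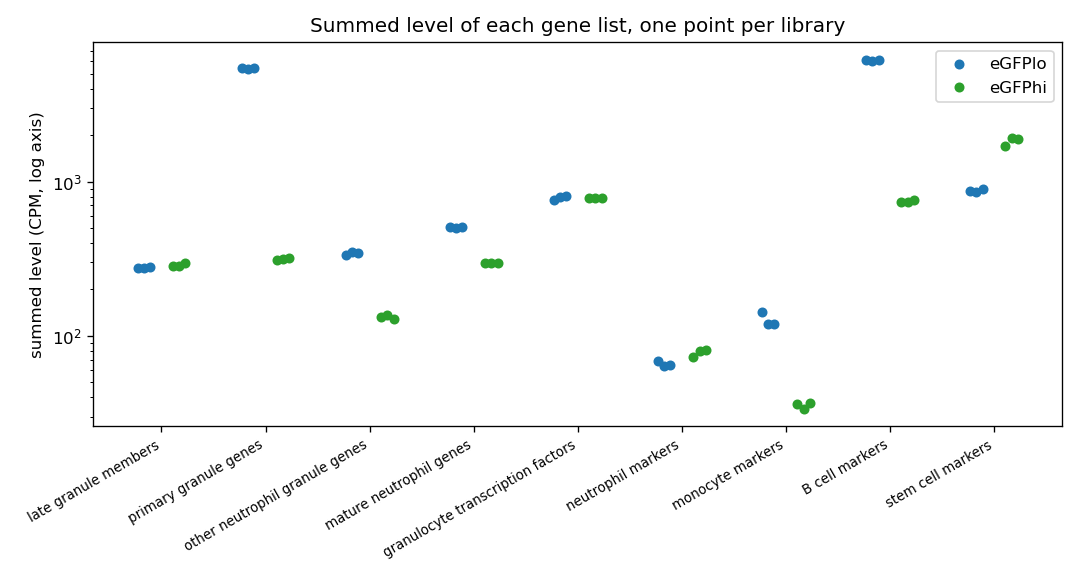
Summed CPM of 9 gene lists on a log axis, 1 point per library and group. The late granule genes lie at 276 to 298 CPM in all 6 libraries, while the primary granule genes drop from 5370 to 5460 CPM in eGFPlo to 309 to 319 CPM in eGFPhi.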

How the data were processed

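RNA of sorted LT-HSCs was selected on poly-T beads and sequenced from paired-end stranded libraries on an Illumina NovaSeq, per the labels' protocols. The submitters' processing notes name CASAVA 1.8, HISAT2, StringTie and edgeR, with no roles, and the builds hg38 and GRCm38. The sources used here name neither the read counter nor its strand setting. The values tested are the authors' deposited counts of reads on each gene, taken as raw. The authors also deposited FPKM values, which divide by the sum of distinct exons for the 10 members, so levels per length used merged exons of GENCODE M21 instead. Of 26776 genes, 26450 had the same coordinates there.

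The count model was edgeR 4.0.16 in R 4.3.3 (filterByExpr at its default minimum of 10 counts and total of 15, TMM, glmQLFit, glmQLFTest, group as the only term), which kept 99.7 to 99.9% of counts. The SE is the log2 fold change divided by the root of the F statistic, and 95% intervals follow from it. The floor of a library, 3 counts, was 0.115 to 0.267 CPM, and covers counting error only. The pipeline was tested on simulated data. Alternatives were upper-quartile or RLE factors, testing without a filter, a filter of 5 CPM in 3 libraries, DESeq2 1.42.0, limma-voom and limma 3.58.1 on log2 of FPKM plus 1, an assumed coefficient of variation of 0.2, the replicate block, a minimum fold of 2, a threshold of 0.1 and leaving out each library. The members and lists were chosen with earlier results of these data known. Genes named are the members, Trim47, at most 4 genes per other list with the smallest p past the threshold, and those without a count in a group, of which some are not reported here; others (among them those that did not pass, Kit, Serpinb1a, Cxcr2 and the genes that rose in mostly falling lists) were chosen after their values were seen.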

Additional observations from a re-analysis of the deposited data

How the results depend on the processing

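The calls of Fcnb and Retnlg held under all 17 and 16 alternatives that gave them a value, with log2 fold changes of -2.34 to -1.95 and 1.39 to 1.82. S100a8 kept its call in 16 of 17, at -0.74 to -0.65, and lost it with a minimum fold of 2. The number of members higher in eGFPhi was 4, and it was 2 with DESeq2, 2 with an assumed coefficient of variation of 0.2, 1 with a minimum fold of 2, 3 with the stricter filter, 5 each with upper-quartile factors, limma-voom and a threshold of 0.1, and 2 to 4 when each library was left out. The number lower was 2, and 1 with a minimum fold of 2. Over all genes 5840 were higher and 5731 lower, 3637 and 2982 with an assumed coefficient of variation of 0.2 and 1403 and 1106 with a minimum fold of 2. Values near 0 changed sign: Camp was at 0.02, at 0 (to 2 decimals) with limma-voom, and between -0.05 and 0.09 when single libraries were left out. Lcn2 was at -0.09, and then between -0.21 and 0.03. The log2 ratio of Camp to Ngp differed by -0.05, and then by -0.11 to 0.04. The cause was not tested. The log2 ratio of S100a8 to S100a9 differed by -0.91 to -0.77 when each library was left out.

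Both groups number their replicates 1 to 3, with no label that ties a number to an animal or day. Deviations from the group means were unrelated between same-numbered libraries (r = 0.00204, -0.00856 and -0.00252 across genes). With the replicate block 4 members were higher and 2 lower, Ltf passing in place of S100a9. Depth limits the precision for rare members: Mmp8 and Retnlg had 50 and 57 counts over the eGFPlo libraries.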
